A study of Mus musculus with 125 samples.

Results

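The subcortical maternal complex is a protein assembly that lies beneath the plasma membrane of the oocyte and the early embryo. Its 8 genes followed here, out of 43421 rows of the count table, are Ooep, Nlrp5, Tle6, Khdc3, Zbed3, Padi6, Nlrp2 and Nlrp4f. They were chosen by name, as proteins of the complex or proteins reported to associate with it, and their rows were found by Ensembl identifier matched to the mouse symbol. All 8 passed the filter on low counts. The complex is encoded by maternal-effect genes: the mother transcribes them while the oocyte grows, and the embryo inherits their products. Most maternal mRNA is degraded around the time the embryo starts its own transcription, which in the mouse is mainly at the 2-cell stage, while the proteins can persist longer. Embryos of mouse females that lack Ooep, Nlrp5 or Tle6 stop in early cleavage, and the complex has been linked to spindle position, actin and the fibrous cytoplasmic lattices of the egg.

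RNA was measured in single mouse 2-cell embryos, collected 34 h after fertilization from zygotes that had been picked at 10 h, and the second polar body had been taken off. The same hours are given for parthenotes, embryos that develop without fertilization, so the start of their count is not clear. Of 125 libraries all but 4, labelled dead or of low quality, were kept, in 7 groups. Uniparental embryos are those whose zygote was scored with 1 pronucleus (1PN) and whose library the submitters called a parthenote in silico. There were 4 from the JF1/Ms and C57BL/6 cross (J×B) and 8 from the C57BL/6 and JF1/Ms cross (B×J). The embryos scored 1PN and called 1PN in silico numbered 3 (J×B) and 11 (B×J), C57BL/6 parthenotes 31, and embryos with 2 pronuclei (2PN) 21 (J×B) and 43 (B×J). The sources used here do not state which strain was the mother, how the parthenotes were made or how the in silico call was made. Parthenotes are labelled C57BL/6 alone, and an embryo of a cross that has 1 parent carries 1 of its strains, while biparental embryos carry both. In every comparison of parthenotes or uniparental embryos with embryos called 1PN or 2PN, strain and the lack of a parent therefore cannot be told apart. The embryos are separate samples, but their mothers and collection days are not given, so p-values measure the spread between embryos only.

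Library totals ran from 533276 to 4887274 estimated counts with a median of 3392406, and levels below are counts per 1000000 counts of a library (CPM). CPM is a share of the RNA counted in a whole embryo, so less RNA of a gene and more RNA of other genes cannot be told apart. Y-linked genes had 50 or more summed counts in 0 of 4 J×B uniparental embryos, 0 of 8 B×J uniparental embryos and 0 of 31 parthenotes, against 2 of 3 J×B and 7 of 11 B×J embryos called 1PN, and 8 of 21 J×B and 23 of 43 B×J 2PN embryos. The J×B uniparental embryos 1 and 2 stood apart from their group: 10 markers of the 2-cell stage summed to 15.21 and 290.4 CPM there, against 7669 and 6117 CPM in embryos 3 and 7. Results that rest on embryos 1 and 2 are therefore given with and without them. Their libraries were also deeper, at 3768466 and 3521234 counts, against 1532065 and 1002464 counts in embryos 3 and 7. All 10 markers of the oocyte had counts in every group. Their summed level ran from 2387 to 13201 CPM in J×B uniparental embryos, from 2254 to 11524 in B×J uniparental embryos, from 1156 to 5508 in parthenotes, from 345.8 to 3654 in J×B 2PN embryos and from 559.7 to 4670 in B×J 2PN embryos. The marker sums of cumulus cells, sperm and blood stayed at or below 134.7, 23 and 165.7 CPM in every kept embryo.

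B×J uniparental embryos had more Ooep and Zbed3 RNA than both C57BL/6 parthenotes and B×J 2PN embryos. Fitted levels were 2.84-fold (Ooep) and 3.301-fold (Zbed3) those of parthenotes, and 2.15-fold and 4.26-fold those of 2PN embryos. Padi6 was lower than in 2PN embryos, at 0.622 of their level, and the other members did not pass the threshold in either comparison. Tests were edgeR quasi-likelihood F tests across 24380 genes, called at a Benjamini-Hochberg adjusted p below 0.05, and log2 fold changes are given ± the standard error. Against parthenotes 2 of 8 members were higher and 0 lower, beside 3.41% higher and 1.57% lower among all genes tested. Against 2PN embryos 2 of 8 were higher and 1 lower, beside 18.5% and 13.2% of all genes, so these counts lay near the shares of all genes. The median log2 fold change of the 8 members was 0.76 against parthenotes and 0.50 against 2PN embryos, where the median of all genes was -0.01 and 0.19.

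Among the core proteins, OOEP is a protein with a KH-like domain that joins NLRP5 and TLE6, and its gene lies at chr9:78376903-78378588 (GRCm38.p6). Ooep had 39.2, 99.95 and 188.1 CPM as the lowest, median and highest value in 8 B×J uniparental embryos, against 10.4, 30.5 and 115.4 CPM in 31 parthenotes and 8.75, 40.9 and 124.4 CPM in 43 B×J 2PN embryos. All 8 uniparental embryos lay above the parthenote median and 4 above the highest parthenote, while 7 lay above the 2PN median and 3 above the highest 2PN embryo, so the groups overlapped. The log2 fold change was 1.51 ± 0.27 over parthenotes (adjusted p = 0.000133) and 1.10 ± 0.26 over 2PN embryos (adjusted p = 0.000757). Without embryo 10, the embryo with the most Ooep, it was 1.27 (adjusted p = 0.00727) and 0.89 (adjusted p = 0.0148).

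Nlrp5 encodes MATER, a large NLR-family protein and the first of the complex to be described as a maternal-effect product. Nlrp5 had 100, 127.4 and 322.7 CPM (lowest, median, highest) in B×J uniparental embryos, against 28.5, 111.4 and 339 CPM in parthenotes and 3.55, 83.4 and 313 CPM in 2PN embryos. All 8 uniparental embryos were above the 2PN median, but the log2 fold change of 0.62 ± 0.27 over 2PN embryos had an adjusted p of 0.0725 and that of 0.50 ± 0.29 over parthenotes an adjusted p of 0.309. Tle6, a Groucho-family member of the core, had a median of 38.2 CPM in uniparental embryos, against 28.02 CPM in parthenotes and 39.9 CPM in 2PN embryos, with log2 fold changes of 0.58 ± 0.28 (adjusted p = 0.213) and -0.12 ± 0.28 (adjusted p = 0.776). Khdc3 encodes FILIA, which joins the core and has been linked to genome stability in mouse embryos. Its median was 10.9 CPM in uniparental embryos, against 12.1 CPM in parthenotes and 15.6 CPM in 2PN embryos. The interval of its log2 fold change over 2PN embryos ran from -1.91 to -0.13 (adjusted p = 0.0728), and over parthenotes from -1.09 to 0.71 (adjusted p = 0.865).

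Zbed3, a zinc-finger protein found with the complex in mouse embryos, lies at chr13:95323605-95337842 (GRCm38.p6). It had 1389, 4304 and 14044 CPM (lowest, median, highest) in B×J uniparental embryos, against 636.6, 1433 and 3643 CPM in parthenotes and 96.0, 929.6 and 2865 CPM in B×J 2PN embryos. In all 8 uniparental embryos it was above the 2PN median and in 5 above the highest 2PN embryo, while 7 were above the parthenote median and 4 above the highest parthenote. The log2 fold change was 1.72 ± 0.32 over parthenotes (adjusted p = 0.000185) and 2.09 ± 0.30 over 2PN embryos (adjusted p = 1.48e-08). Embryo 10 alone held 14044 CPM, and without it the values were 1.23 (adjusted p = 0.0359) and 1.61 (adjusted p = 4.99e-05).

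Padi6, a member of the arginine deiminase family that is needed for the cytoplasmic lattices, moved the other way. Padi6 had 79.1, 103 and 145.2 CPM (lowest, median, highest) in B×J uniparental embryos, against 33.1, 136.5 and 198.1 CPM in parthenotes and 38.1, 139.3 and 269.9 CPM in 2PN embryos. Of the 8 uniparental embryos 7 lay below the 2PN median, all within the 2PN range. The log2 fold change was -0.69 ± 0.25 over 2PN embryos (adjusted p = 0.0245) and -0.31 ± 0.25 over parthenotes (adjusted p = 0.493). The call against 2PN embryos was lost without uniparental embryo 7 (-0.62, adjusted p = 0.0605) or 22 (-0.64, adjusted p = 0.0600). Apart from leaving out single embryos, 9 of 15 alternative settings kept it. Among those that lost it were DESeq2 size factors in edgeR (-0.44, adjusted p = 0.142) and library totals alone (-0.47, adjusted p = 0.123). It was also lost in DESeq2 (adjusted p = 0.156) and in limma voom (adjusted p = 0.0551).

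Nlrp4f and Nlrp2 encode further NLR-family proteins of oocytes that have been found with the complex, and maternal loss of Nlrp2 has been linked to disturbed imprinting. Nlrp4f had 111.8, 199.8 and 581.2 CPM (lowest, median, highest) in B×J uniparental embryos, against 48.7, 118.3 and 415.3 CPM in parthenotes and 29.6, 108.4 and 392.6 CPM in 2PN embryos. In all 8 it was above the 2PN median, yet the log2 fold change was 0.84 ± 0.40 over 2PN embryos (adjusted p = 0.0948) and 0.94 ± 0.41 over parthenotes (adjusted p = 0.172). Nlrp2 was counted thinly, with a median of 15.6 CPM in uniparental embryos, against 9.17 CPM in parthenotes and 10.2 CPM in 2PN embryos. Its log2 fold change was 0.99 ± 0.43 over parthenotes (adjusted p = 0.167) and 0.38 ± 0.41 over 2PN embryos (adjusted p = 0.5003).

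**Figure D1:**
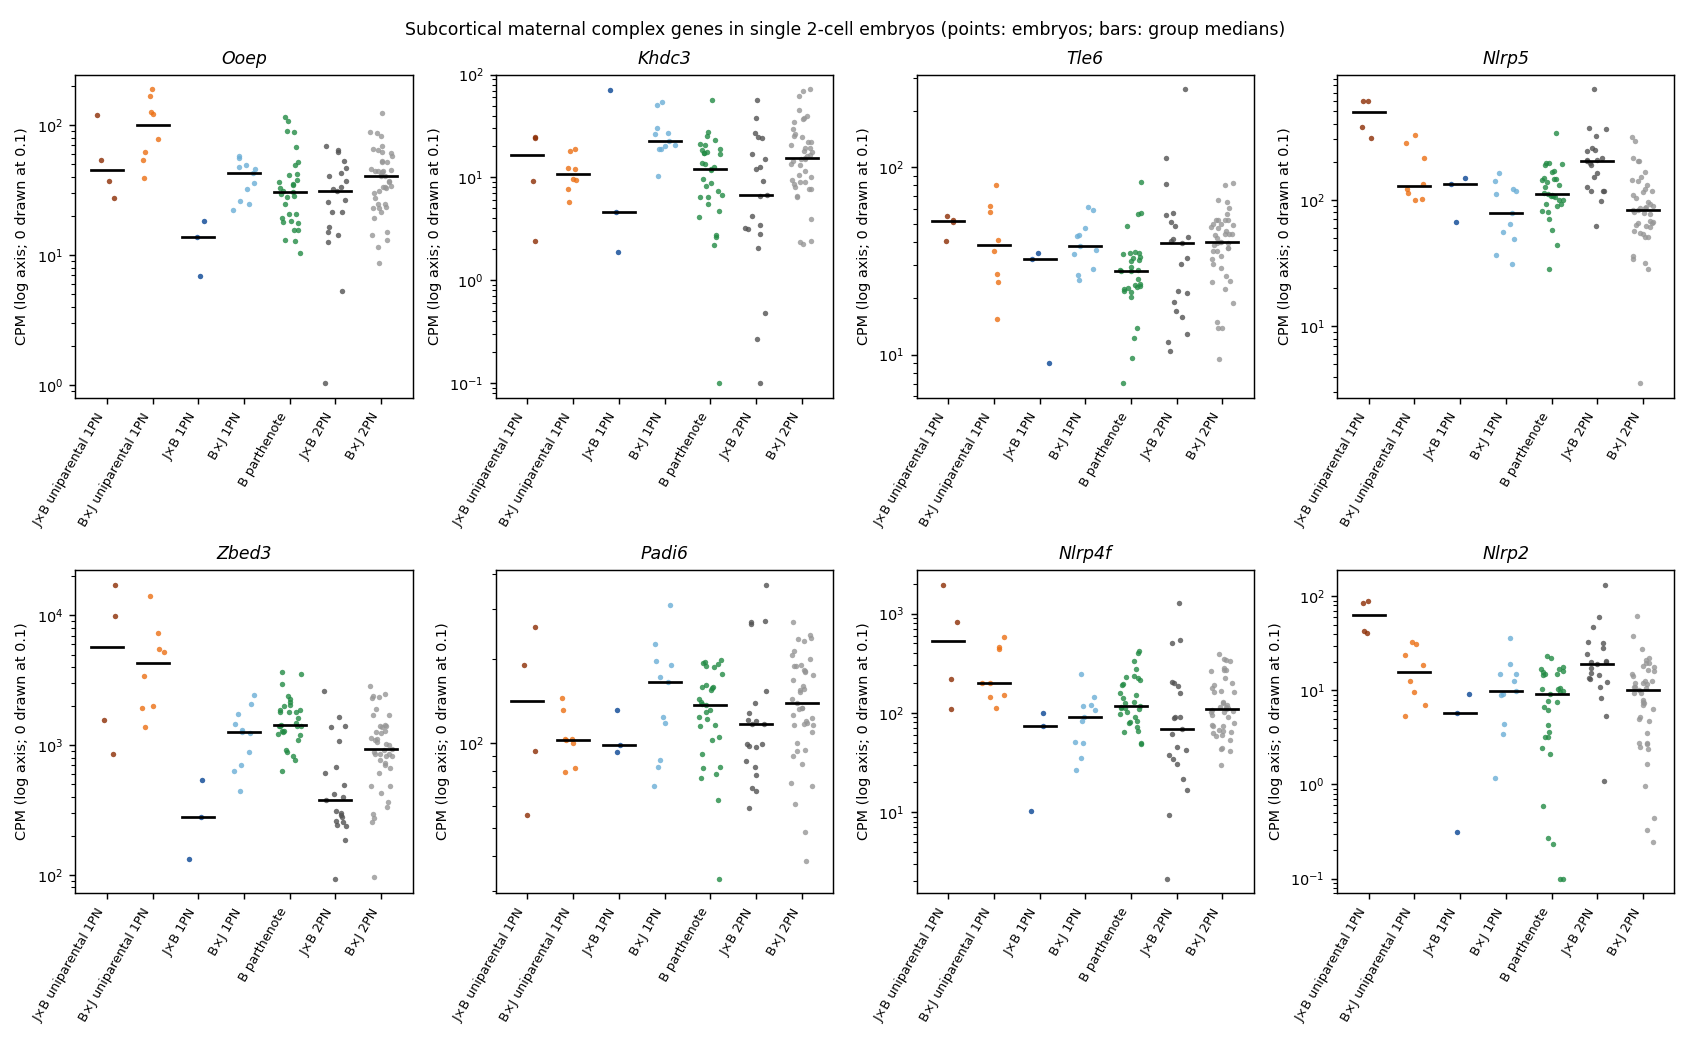
CPM of each of the 8 genes (log axis, 0 drawn at 0.1) in every kept embryo of the 7 groups, with the group median as a bar. Zbed3 medians were 4304 CPM in B×J uniparental 1PN embryos, 1433 CPM in parthenotes and 929.6 CPM in B×J 2PN embryos, and single embryos of these groups overlap.

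The 8 B×J uniparental embryos did not carry the higher levels evenly. Relative to the B×J 2PN median, on the log2(CPM + 1) scale, Zbed3 stood 3.92 higher in embryo 10 and 2.98 higher in embryo 19, against 0.58 in embryo 14. Ooep stood 2.18 higher in embryo 10 and 2.00 in embryo 19 and was -0.06 in embryo 18. Embryos 7, 10 and 19 also had the 3 highest levels of Nlrp5 and of Nlrp4f. The summed oocyte markers were 6590, 11524 and 6007 CPM in embryos 7, 10 and 19 and lay between 2254 and 3814 CPM in the other 5 embryos. Of the 10 oocyte markers 4 were higher in B×J uniparental embryos than in parthenotes and 5 higher than in 2PN embryos, with 0 lower in either, beside 3.41% and 18.5% higher among all genes. Of the 10 markers of the 2-cell stage 0 were higher and 2, Obox3 and Obox6, lower than in 2PN embryos, and 0 passed against parthenotes. Their summed level had a median of 3061 CPM in B×J uniparental embryos, 3850 CPM in parthenotes and 4752 CPM in 2PN embryos, and it was lowest in embryos 10 and 19, at 1939 and 2082 CPM. The part of either marker list in the results on Ooep and Zbed3 was not tested.

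**Figure D2:**
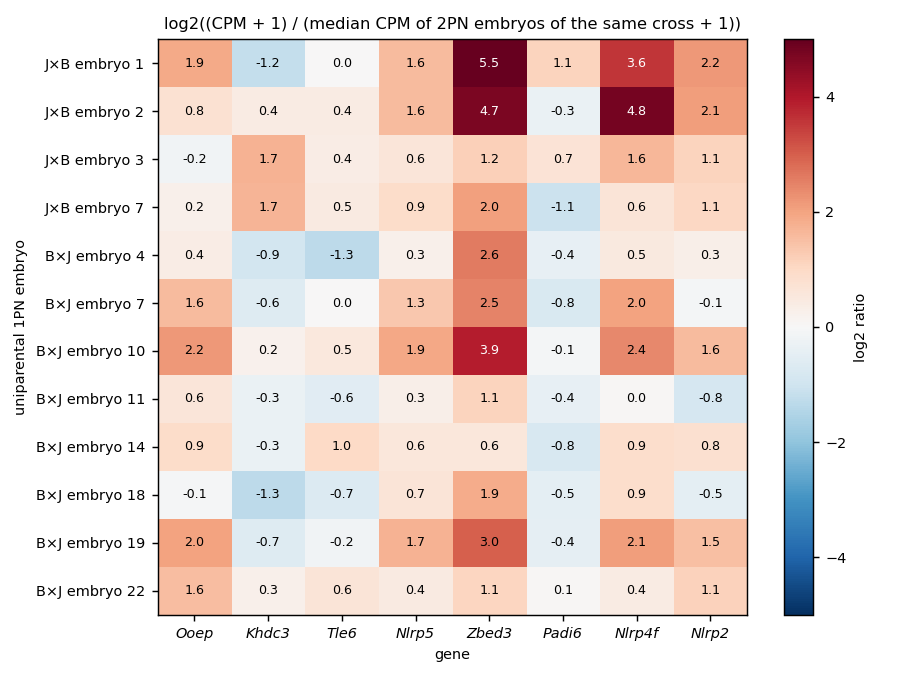
Each cell gives the log2 ratio of CPM + 1 in 1 uniparental 1PN embryo to the median of the 2PN embryos of its cross (rows: embryos, J×B above B×J; columns: genes). Zbed3 is above 0 in all 12 embryos, and B×J embryo 10 reads 3.9 for Zbed3 and 2.2 for Ooep.

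To show the sequence in front of the genes that changed in this cross, the RefSeq promoter windows of Ooep, Zbed3 and Padi6 are given, 250 bases before to 50 bases after the outermost listed start (GRCm38.p6, 5′ to 3′ on the gene's strand). Capitals mark matches, on either strand, to the E-box CANNTG, the element TAATTG bound by the oocyte factor NOBOX, and the GC box GGGCGG.
Ooep, chr9:78378539-78378838, minus strand: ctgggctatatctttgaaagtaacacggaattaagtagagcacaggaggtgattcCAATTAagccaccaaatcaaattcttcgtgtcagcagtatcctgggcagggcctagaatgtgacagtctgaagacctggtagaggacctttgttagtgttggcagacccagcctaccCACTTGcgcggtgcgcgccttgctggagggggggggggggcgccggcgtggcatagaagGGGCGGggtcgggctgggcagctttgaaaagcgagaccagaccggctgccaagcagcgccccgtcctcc
Zbed3, chr13:95323355-95323654, plus strand: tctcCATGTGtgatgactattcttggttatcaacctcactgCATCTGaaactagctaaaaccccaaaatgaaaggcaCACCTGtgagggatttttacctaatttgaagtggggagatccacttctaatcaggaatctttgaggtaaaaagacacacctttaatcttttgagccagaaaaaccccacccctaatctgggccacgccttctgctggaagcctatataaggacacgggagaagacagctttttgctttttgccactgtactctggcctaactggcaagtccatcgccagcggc
Padi6, chr4:140742594-140742893, minus strand: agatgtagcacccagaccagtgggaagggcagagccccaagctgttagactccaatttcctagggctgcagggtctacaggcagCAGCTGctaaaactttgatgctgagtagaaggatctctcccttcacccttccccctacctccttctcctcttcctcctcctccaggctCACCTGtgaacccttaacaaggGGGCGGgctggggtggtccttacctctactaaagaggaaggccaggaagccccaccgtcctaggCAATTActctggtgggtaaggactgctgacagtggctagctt
Zbed3 held 3 E-boxes, Padi6 held 2 and Ooep held 1. An E-box stood in the windows of 7 of 8 members and in 72.1% of 27025 promoter windows of the same length. TAATTG stood in 2 of 8, Ooep and Padi6, and in 8.14% of all windows, while the GC box stood in 4 of 8 and 35.9%, and TATAAA in 0 of 8 and 14.2%. A match to these short words is a description of the letters only, and any part of these words in the levels of the genes was not tested.

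Set against the 11 B×J embryos called 1PN, the 8 B×J uniparental embryos share cross and pronuclear score, and the comparison is between uniparental and other embryos scored 1PN, with the limit on strain given above. Ooep, Zbed3 and Nlrp4f were higher and Khdc3 lower, 3 and 1 of 8 members, beside 8.81% higher and 8.08% lower among all genes. Zbed3 had a median of 4304 CPM in uniparental embryos and 1273 CPM in embryos called 1PN, where the range ran from 441.4 to 2447 CPM, and 5 of 8 uniparental embryos lay above that range. Its log2 fold change was 1.87 ± 0.41 (adjusted p = 0.000719). Ooep ran from 39.2 to 188.1 CPM in uniparental embryos and from 22.4 to 57.8 CPM in embryos called 1PN, a log2 fold change of 1.20 ± 0.35 (adjusted p = 0.0107) that was lost without uniparental embryo 10 (0.99, adjusted p = 0.0576). Nlrp4f had a log2 fold change of 1.38 ± 0.51 (adjusted p = 0.0478), lost without embryo 7, 10 or 19, and at its lowest 1.12 without embryo 10 (adjusted p = 0.157). Apart from leaving out single embryos, 11 of 15 alternative settings kept the Nlrp4f call.

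Khdc3 lay between 5.75 and 19 CPM in B×J uniparental embryos and between 10.3 and 54.6 CPM in B×J embryos called 1PN. All 8 uniparental embryos were below the median of 22.7 CPM in embryos called 1PN, and 4 lay below their lowest value. The log2 fold change of -1.42 ± 0.52 passed at an adjusted p of 0.0466. It was lost without any 1 of uniparental embryos 4, 7, 10, 11, 18, 19 and 22, and without embryo 9 of those called 1PN (-1.15, adjusted p = 0.105). Apart from leaving out single embryos, 8 of 15 alternative settings kept the Khdc3 call. Of its values 51.2% were not whole numbers, against 28.4% of all values above 0 in the table, and for Zbed3 this share was 43%.

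C57BL/6 parthenotes had less Tle6, Khdc3 and Padi6 than B×J 2PN embryos, and 0 members were higher. These are 3 lower of 8 members, beside 21.8% lower and 29.1% higher among all genes tested. This comparison has the same 2PN embryos as that of uniparental embryos, so the values stand side by side and are not compared. Tle6 had 7.04, 28.02 and 83.5 CPM (lowest, median, highest) in parthenotes, against 9.46, 39.9 and 81.9 CPM in 2PN embryos, and 27 of 31 parthenotes lay below the 2PN median (log2 fold change -0.70 ± 0.17, adjusted p = 0.000334). Khdc3 had a log2 fold change of -0.83 ± 0.26 (adjusted p = 0.00530) with a median of 12.1 CPM in parthenotes and 15.6 CPM in 2PN embryos, and it was lost in DESeq2 (-0.64, adjusted p = 0.0549). Padi6 had nearly the same median in both, 136.5 CPM in parthenotes and 139.3 CPM in 2PN embryos. Its log2 fold change of -0.37 ± 0.14 (adjusted p = 0.0230) kept its call in 10 of 15 alternative settings. Among the settings that lost it were DESeq2 size factors (-0.18, adjusted p = 0.294) and library totals alone (-0.14, adjusted p = 0.428).

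Zbed3 was above the 2PN median in 26 of 31 parthenotes, with a median of 1433 CPM in parthenotes and 929.6 CPM in 2PN embryos. Its log2 fold change of 0.37 ± 0.21 did not pass (adjusted p = 0.131), but it passed with DESeq2 size factors (0.59, adjusted p = 0.0144), with library totals alone (0.61, adjusted p = 0.0114), in DESeq2 and in limma voom. Ooep had a log2 fold change of -0.40 ± 0.18 (adjusted p = 0.0548) and Nlrp2 of -0.61 ± 0.28 (adjusted p = 0.0595). Nlrp5 and Nlrp4f had 0.11 ± 0.18 and -0.10 ± 0.26, with intervals from -0.23 to 0.46 and from -0.61 to 0.41.

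**Figure D3:**
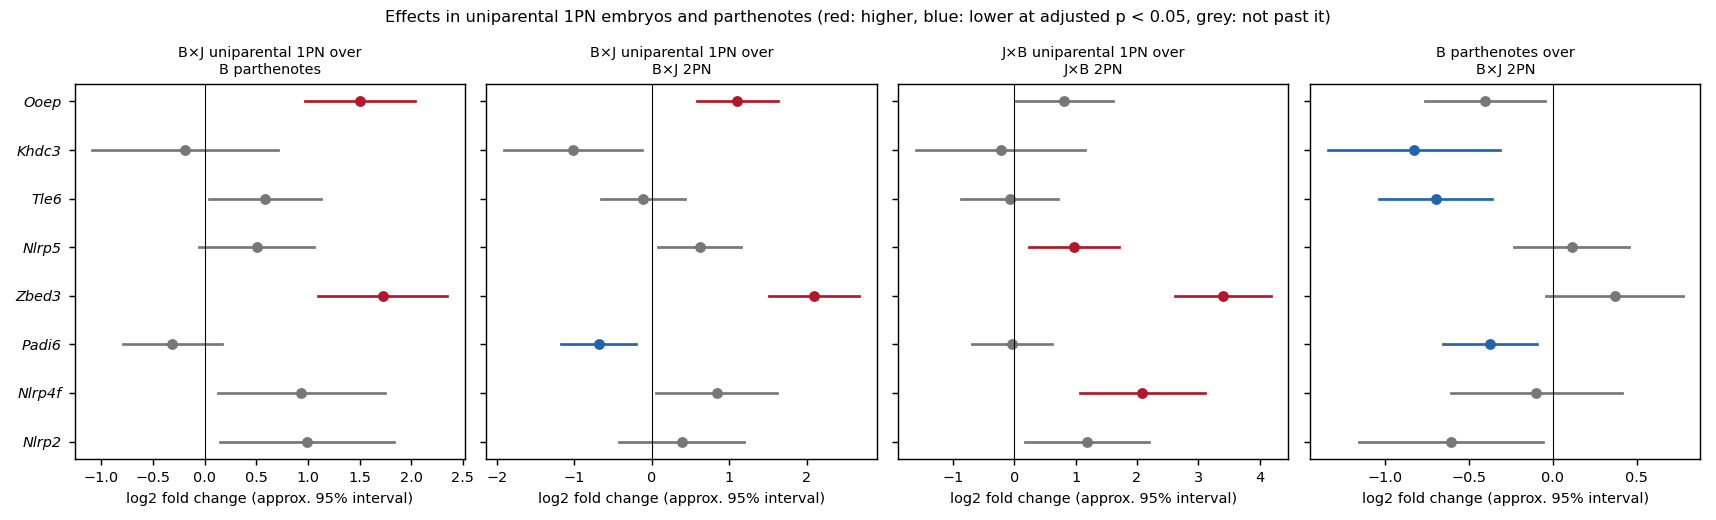
Log2 fold change of each gene with its approximate 95% interval in 4 comparisons, the group named first over the second, coloured where the adjusted p is below 0.05. Zbed3 is at 1.72, 2.09, 3.40 and 0.37 from left to right, and Padi6 is on the lower side of 0 in each.

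J×B uniparental embryos had more Zbed3, Nlrp4f and Nlrp5 RNA than J×B 2PN embryos, and all 3 of these calls rested on embryos 1 and 2. With all 4 embryos, 3 of 8 members were higher and 0 lower, beside 14.7% higher and 20.1% lower among all genes. Zbed3 had 17326, 9876, 854.7 and 1554 CPM in uniparental embryos 1, 2, 3 and 7, against 93.6, 374.7 and 2612 CPM (lowest, median, highest) in 21 2PN embryos. Embryos 1 and 2 were above every 2PN embryo and embryos 3 and 7 within their range. The log2 fold change was 3.40 ± 0.40 (adjusted p = 2.26e-11), and without embryos 1 and 2 it was 0.80 ± 0.60 (adjusted p = 0.556).

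Nlrp4f had 830.9, 1963, 218.7 and 108.7 CPM in J×B uniparental embryos 1, 2, 3 and 7, against 2.14, 69.4 and 1284 CPM (lowest, median, highest) in J×B 2PN embryos. Its log2 fold change of 2.09 ± 0.52 (adjusted p = 0.000722) was 0.94 without embryo 2 (adjusted p = 0.304) and turned to -0.21 without both embryos 1 and 2 (adjusted p = 0.956). Nlrp5 had 607.7, 607.5, 308.1 and 379.1 CPM in uniparental embryos 1, 2, 3 and 7, all above the 2PN median of 200.7 CPM, where the range was 62.4 to 747.2 CPM. The log2 fold change was 0.98 ± 0.37 (adjusted p = 0.0327), without embryo 1 it was 0.95 (adjusted p = 0.0998) and without both embryos 1 and 2 it was 0.53 (adjusted p = 0.732). Of the 4 fits without 1 uniparental embryo 2 kept the Nlrp5 call. Over these 4 the lowest log2 fold change was 0.79 and the highest adjusted p 0.197.

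The remaining members did not pass in J×B uniparental embryos. Nlrp2 had 89.2, 85.1, 42.4 and 40.9 CPM in embryos 1, 2, 3 and 7, all 4 above the J×B 2PN median of 19.2 CPM (log2 fold change 1.19 ± 0.51, adjusted p = 0.0606). Ooep had 119, 53.4, 27.4 and 36.9 CPM there, against a 2PN median of 31.1 CPM (0.82 ± 0.41, adjusted p = 0.111). Tle6, Khdc3 and Padi6 had log2 fold changes of -0.07, -0.22 and -0.03, with intervals from -0.86 to 0.71, from -1.60 to 1.16 and from -0.69 to 0.62. Their medians lay the other way, at 51.7, 16.6 and 141.8 CPM, against 39.5, 6.74 and 117.3 CPM in 2PN embryos. J×B 2PN embryo 8 held the highest 2PN level of Tle6 (260 CPM) and Padi6 (366.2 CPM), and also of Zbed3, Nlrp4f, Nlrp5 and Nlrp2. It was part of every fit that held J×B 2PN embryos. The summed oocyte markers were 9756 and 13201 CPM in J×B uniparental embryos 1 and 2, against 2717 and 2387 CPM in uniparental embryos 3 and 7. The part of these markers in the results was not tested.

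A test of the difference between the effects of the 2 crosses, B×J uniparental over 2PN less J×B uniparental over 2PN, called 0 of 8 members, beside 11.8% higher and 4.09% lower among all genes. At an unadjusted p below 0.05 there was 1 of 8 members, beside 7235 of 24380 genes. For Zbed3 the difference was -1.31 ± 0.58 (adjusted p = 0.108). Without J×B embryos 1 and 2 it was 1.36 (adjusted p = 0.510), so its sign rested on them.

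Embryos called 1PN showed no member past the threshold against 2PN embryos of their cross. In B×J 0 of 8 members were called, beside 0.197% higher and 0% lower among all genes. At an unadjusted p below 0.05 there were 0 of 8, beside 1094 of 24380 genes. The intervals were widest for Nlrp4f, from -1.31 to 0.22, and for Nlrp2, from -0.69 to 0.80, and Zbed3 ran from -0.36 to 0.80. In J×B 0 of 8 were called, beside 0.0082% higher and 0% lower among all genes. At an unadjusted p below 0.05 there were 2 of 8 members, beside 2232 of 24380 genes. The 3 J×B embryos called 1PN had 9.07, 0.312 and 5.76 CPM of Nlrp2, against 1.10, 19.2 and 133.6 CPM (lowest, median, highest) in J×B 2PN embryos, a log2 fold change of -2.34 ± 0.86 (adjusted p = 0.397). They had 13.8, 6.87 and 18.3 CPM of Ooep, all below the 2PN median of 31.1 CPM (-1.20 ± 0.57, adjusted p = 0.511). With 3 embryos the intervals were wide, for Nlrp2 from -4.03 to -0.65.

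The reciprocal crosses differed in 3 of 8 members among 2PN embryos, a count near the share of all genes that differed. In J×B 2PN embryos Nlrp5 and Nlrp2 were higher and Zbed3 lower than in B×J 2PN embryos, beside 18.8% higher and 19.1% lower among all genes. Nlrp5 had 62.4, 200.7 and 747.2 CPM (lowest, median, highest) in J×B 2PN embryos, against 3.55, 83.4 and 313 CPM in B×J 2PN embryos, and 20 of 21 J×B embryos lay above the B×J median (1.17 ± 0.19, adjusted p = 2.79e-07). Nlrp2 had a median of 19.2 CPM in J×B and 10.2 CPM in B×J embryos, with 18 of 21 above the B×J median (1.19 ± 0.29, adjusted p = 0.000362). Zbed3 had a median of 374.7 CPM in J×B and 929.6 CPM in B×J embryos, and 16 of 21 J×B embryos lay below the B×J median (-0.77 ± 0.25, adjusted p = 0.00804). This Zbed3 call was lost with upper quartile factors (-0.59, adjusted p = 0.0513) and among the embryos listed in the first of 2 runs of accession numbers, which the labels do not call a batch (-0.57, adjusted p = 0.1002).

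Nlrp5 and Nlrp2 were also higher in J×B than in B×J uniparental embryos. Nlrp2 had 40.9 to 89.2 CPM in the 4 J×B embryos, against 5.32 to 32.8 CPM in the 8 B×J embryos, without overlap (2.00 ± 0.60, adjusted p = 0.00628), and 3.05% of 18878 genes averaging 1 CPM or more lay entirely higher. Nlrp5 ran from 308.1 to 607.7 CPM in J×B and from 100 to 322.7 CPM in B×J uniparental embryos (1.53 ± 0.44, adjusted p = 0.00389). Nlrp4f passed narrowly (1.57 ± 0.64, adjusted p = 0.0482) and kept its call in 15 of 28 alternatives. In all, 3 of 8 members were higher and 0 lower, beside 12.5% higher and 20.7% lower among all genes. Without J×B embryos 1 and 2 none of the 8 passed: Nlrp2 was 1.33 (adjusted p = 0.391), Nlrp5 1.04 (adjusted p = 0.287) and Nlrp4f -0.73 (adjusted p = 0.716).

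**Figure D4:**
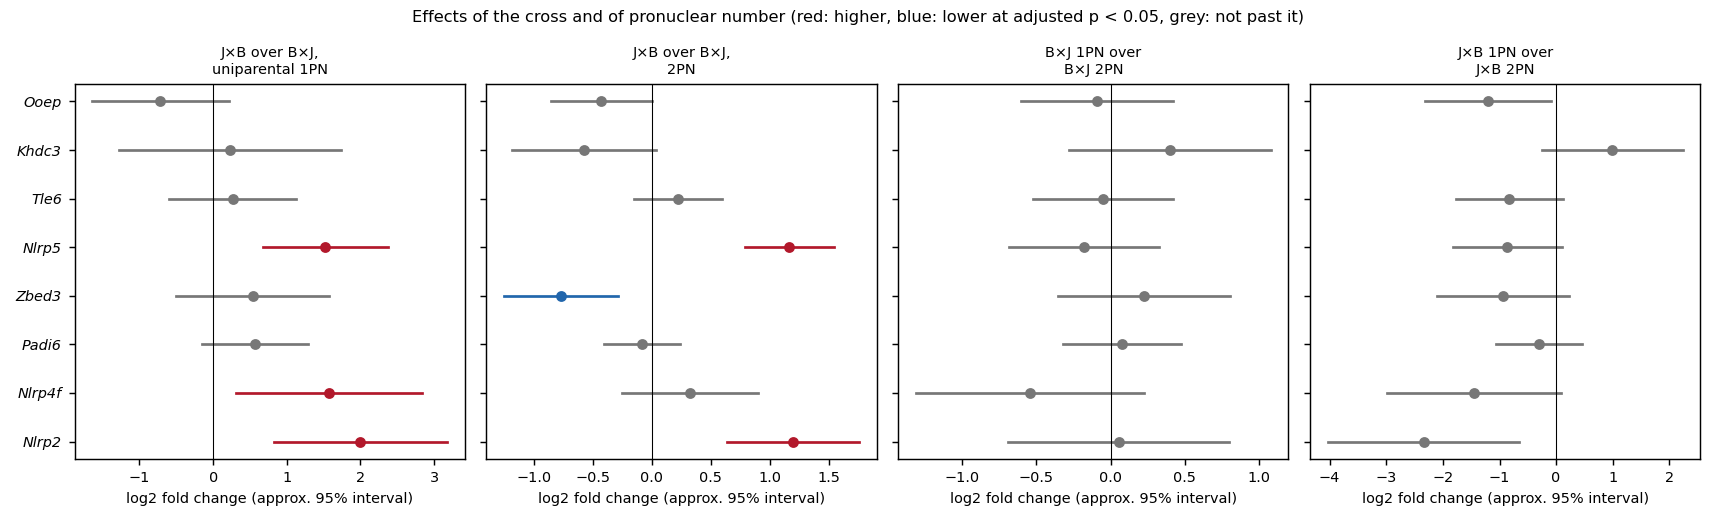
Log2 fold change of each gene with its approximate 95% interval between crosses and between embryos called 1PN and 2PN, the group named first over the second, coloured where the adjusted p is below 0.05. Nlrp5 is at 1.53 between uniparental embryos and 1.17 between 2PN embryos, J×B over B×J.

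Across single embryos of 1 group, 22 of 28 pairs of members had a rank correlation above 0 in parthenotes and 22 of 28 in B×J 2PN embryos, with Khdc3 and Padi6 only weakly related to several of the others in both. Over 31 parthenotes the Spearman rho of the 28 pairs of members had a median of 0.17 and ran from -0.27 to 0.52, and over 43 B×J 2PN embryos it had a median of 0.44 and ran from -0.23 to 0.87. In the 2PN embryos 13 of 28 pairs were above 0.5, and in parthenotes 1 was. Nlrp4f and Zbed3 were the closest pair in both, with rho of 0.52 (Pearson r of log2(CPM + 1) 0.57) over parthenotes and 0.87 (r 0.82) over B×J 2PN embryos. Ooep and Nlrp5 had rho of 0.44 (r 0.53) in parthenotes and 0.79 (r 0.72) in B×J 2PN embryos. Khdc3 had a rho below 0 with 6 of the other 7 members in B×J 2PN embryos, down to -0.23 with Nlrp4f. Padi6 had rho of 0.05 with Ooep and 0.20 with Nlrp2 in B×J 2PN embryos, and in parthenotes it was below 0 with Nlrp5 (-0.27), Nlrp4f (-0.20), Zbed3 (-0.15) and Nlrp2 (-0.02). In the 21 J×B 2PN embryos the median over pairs was 0.48, and there the rho of Padi6 was 0.73 with Tle6 and 0.27 with Ooep. These values describe embryos that may share a mother, a collection day or a library preparation, and the oocyte markers moved with most members. In B×J 2PN embryos the rho with the summed oocyte markers was 0.88 for Nlrp4f, 0.86 for Zbed3, 0.82 for Nlrp5, 0.73 for Ooep, 0.70 for Nlrp2, 0.54 for Tle6, 0.39 for Padi6 and -0.22 for Khdc3. With the library total the rho of the 8 members ran from -0.04 (Khdc3) to 0.27 (Nlrp2).

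**Figure D5:**
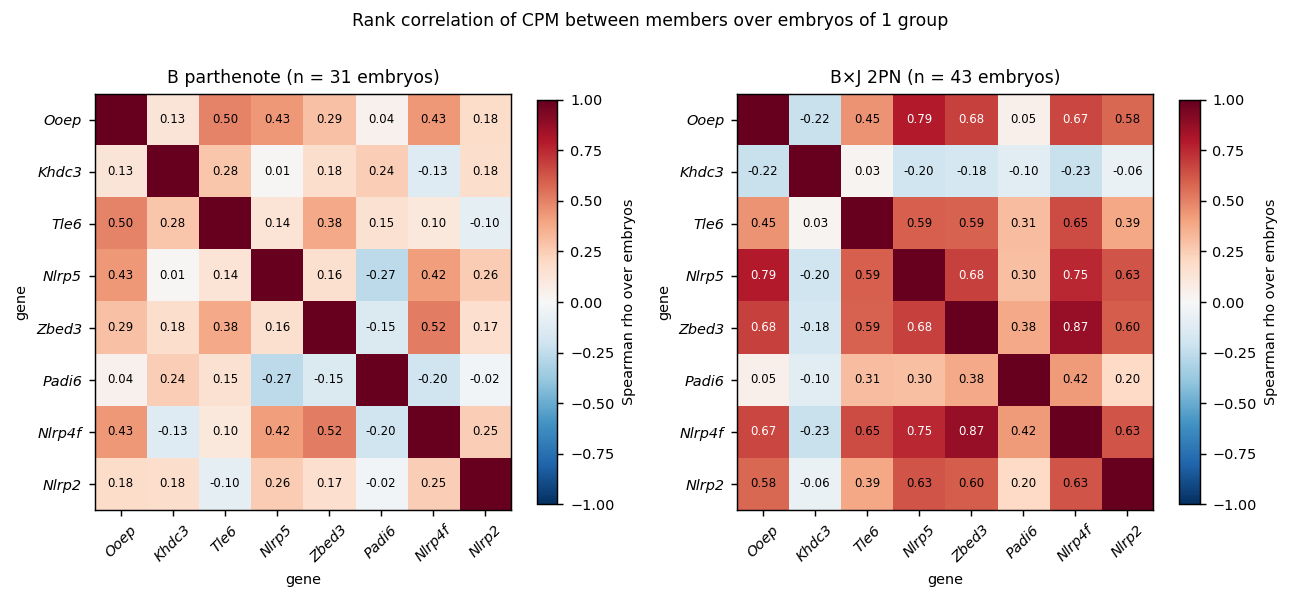
Spearman rho of CPM between each pair of the 8 genes over 31 C57BL/6 parthenotes (left) and 43 B×J 2PN embryos (right). Nlrp4f and Zbed3 read 0.52 in parthenotes and 0.87 in 2PN embryos, and the Khdc3 row is near or below 0 in 2PN embryos.

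The genes whose log2(CPM + 1) followed the mean z score of the 8 members most closely over 43 B×J 2PN embryos, of 7412 genes compared, were Bpgm (rho 0.86), Oas1d (0.86), Arhgap20 (0.85), Parl (0.85), C87414 (0.85), Gng3 (0.84), Lmo1 (0.84), Usp15 (0.84), Sebox (0.84) and Chn1 (0.84). The genes compared averaged 10 CPM or more there. The members, pseudogenes and genes with only a provisional name, such as a Gm number or a Rik clone, were left out. Oas1d belongs to the oligoadenylate synthetase family and is known from mouse oocytes, and Sebox encodes a homeobox factor of the oocyte with a maternal effect in the mouse. Bpgm averaged 899.6 CPM in B×J uniparental embryos, 372.4 CPM in parthenotes and 268.8 CPM in B×J 2PN embryos.

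Related genes were read from lists of relatives and partners of the complex, whose counts stand against 18.5% higher and 13.2% lower among all genes in B×J uniparental over 2PN embryos, and 3.41% and 1.57% over parthenotes. Of 15 other Nlrp genes 12 passed the filter on low counts; in B×J uniparental embryos 3 were higher and 0 lower than in parthenotes, and 7 higher and 1 lower than in 2PN embryos. Nlrp4e, a paralog of Nlrp4f, averaged 63.6 CPM in uniparental and 20.01 CPM in 2PN embryos (1.47 ± 0.27, adjusted p = 1.25e-05). Nlrp4a averaged 180.3 CPM in uniparental and 62.8 CPM in 2PN embryos (1.34 ± 0.37, adjusted p = 0.00312). Nlrp12, which is best known from immune cells, was lower, at 7.04 CPM in uniparental and 18.8 CPM in 2PN embryos (-1.57 ± 0.39, adjusted p = 0.00119). Of 14 tested paralogs of the other members 3 were higher and 3 lower than in 2PN embryos, near the shares of all genes, among them the KH-domain genes Khdc1b (0.87 ± 0.20, adjusted p = 0.000408) and Khdc1c (-1.29 ± 0.23, adjusted p = 9.79e-06), which moved in opposite directions, and 0 were higher and 2 lower than in parthenotes.

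Of 40 other maternal-effect genes 20 were higher and 5 lower in B×J uniparental than in 2PN embryos, with a median log2 fold change of 0.59, beside 18.5% higher and 13.2% lower among all genes. Set against parthenotes 8 were higher and 1 lower, with a median of 0.42, beside 3.41% and 1.57%. The smallest p of the list over 2PN embryos was that of Btg4, an adaptor for the decay of maternal mRNA, at 2509 CPM in uniparental embryos, 1145 CPM in parthenotes and 579.4 CPM in 2PN embryos on average. Zfp57, which protects imprints, averaged 354.7 CPM in uniparental embryos, 110 CPM in parthenotes and 108 CPM in 2PN embryos (1.57 ± 0.24 over 2PN embryos, adjusted p = 1.98e-07), and Ctcf, a chromatin insulator protein, was lower (-1.02 ± 0.20, adjusted p = 2.44e-05). Of 23 genes of cytoplasmic lattice partners 8 were higher and 1 lower than in 2PN embryos, and 5 higher and 0 lower than in parthenotes. The higher ones over 2PN embryos include the oocyte F-box genes Fbxw22 (1.13 ± 0.26, adjusted p = 0.000460) and Fbxw19 (0.75 ± 0.19, adjusted p = 0.00143), and Tubb4b, a tubulin, was lower (-0.88 ± 0.23, adjusted p = 0.00219). Of 19 genes of actin and cofilin 4 were higher and 5 lower than in 2PN embryos, and 1 higher and 1 lower than in parthenotes, near the shares of all genes, with the small GTPase genes Rac1 (0.70 ± 0.19, adjusted p = 0.00317) and Cdc42 (-0.93 ± 0.23, adjusted p = 0.00111) on opposite sides. The lists share genes, so their counts are not independent. Of the maternal-effect genes Gdf9, Bmp15, Oosp1, Mos, Zar1, Btg4 and Npm2 are also oocyte markers, and Uhrf1 is also a lattice partner. Nlrp14 is counted among both the other Nlrp genes and the lattice partners.

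Some counts are less certain. In the RefSeq annotation of GRCm38.p6 the span of Tle6 overlaps Tle2 and a long noncoding RNA, that of Zbed3 holds 2 snoRNA genes and that of Nlrp2 holds 2 pseudogenes, while Ooep, Nlrp5, Khdc3, Padi6 and Nlrp4f overlap no listed gene. Nlrp genes have close paralogs. The sources used here give neither the use of strand nor how reads shared between genes were counted.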

How the data were processed

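The authors deposited 1 table of expected counts (estimated counts per gene, unscaled), in which 12.6% of values are not whole. Per the submitters' processing notes, HISAT2 2.0.5, featureCounts 2.0.0 and build GRCm38 were used, and SMART-Seq v4 and Nextera XT kits per the labels' protocols. Groups follow the labels' strain, pronuclear score and in silico call, and 4 libraries labelled dead or of low quality were left out. From the counts, rounded first, all 7 group means were fitted by edgeR 4.0.16 under R 4.3.3 (TMM factors, filterByExpr, newer quasi-dispersion, quasi-likelihood F test), with adjustment over all 24380 genes tested at a threshold of 0.05. Standard errors are the absolute log2 fold change over the square root of F, and intervals are 1.96 standard errors either side. DESeq2 1.42.0, limma 3.58.1 and the other settings are alternatives. The scripts were tested on simulated data. Depth ran from 533276 to 4887274 counts, and standard errors cover the spread between embryos. No pair of libraries within a group differed by as little as sampling noise (lowest chi-square per gene 16.9). The members, lists and comparisons were chosen with earlier results of these data known. All 8 members are named, with up to 4 genes per list of smallest p in B×J uniparental against 2PN embryos among those with a mean of at least 10 CPM, and the 10 genes most alike. RefSeq tables of GRCm38.p6 gave coordinates and promoters for all 8 members.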

Additional observations from a re-analysis of the deposited data

Results flagged for a closer look

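On the CPM scale, Zbed3 in B×J uniparental embryo 10 stood far from the other 7 embryos of its group, at 14044 CPM. Its gap to the next embryo was 0.531 of the group's range, above the critical value of 0.526. It was the only one of 16 tested sets of a gene and a group with such a sample. Chance gives about 1 in 20 where values are normally distributed, which CPM need not be. On the log2(CPM + 1) scale, relative to the B×J 2PN median, embryo 10 stood at 3.92, embryo 19 at 2.98 and embryo 14, the lowest, at 0.58. The rule was not applied on that scale.

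In libraries outside the comparisons, levels above the highest B×J 2PN embryo were seen for Nlrp4f in the embryo labelled dead (embryo 16), at 1218 CPM. In B×J 1PN embryo 6, labelled of low quality, Zbed3 had 15520 CPM and Nlrp4f 571.6 CPM.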

How the results depend on the processing

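Every count of called members and every member's log2 fold change was recomputed under the alternatives. Among the values of single members 1554 stayed on their side of the threshold, 63 lost their call, 63 gained one and 2 called values changed sign. Ooep and Zbed3 kept their calls in B×J uniparental embryos, over parthenotes and over 2PN embryos, in all 23 alternatives with 2 exceptions: with the number in the embryo's title as a replicate block, Zbed3 over parthenotes was 1.36 (adjusted p = 0.0752) and Ooep over 2PN embryos 0.83 (adjusted p = 0.0724). The block also moved the number of called members to 1 in both comparisons and to 0 for B×J uniparental over embryos called 1PN. The numbers do not pair the embryos: same-numbered embryos of different groups had a median correlation of -0.002 and other pairs -0.001.

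For J×B uniparental over 2PN embryos 5 members were called with DESeq2 size factors or with upper quartile factors. Among libraries of at least 2000000 counts 5 were also called, but that filter kept only embryos 1 and 2 of the J×B uniparental embryos. Without embryos 1 and 2 there were 0. Without them J×B over B×J uniparental embryos also had 0, and Nlrp4f changed sign in both, to -0.21 and -0.73. B×J uniparental over 2PN embryos had 5 called among libraries of at least 2000000 counts and in a fit of these groups alone. Parthenotes over 2PN embryos had 5 with upper quartile factors, with limma voom, in the first run of accession numbers and with the run as a term, and J×B over B×J 2PN embryos had 5 with limma voom. B×J uniparental over embryos called 1PN had 2 with edgeR's older quasi-dispersion, an alternative chosen after seeing the data. The difference between crosses had 2 with upper quartile factors or limma voom, and 1 without the filter on low counts or among libraries of at least 2000000 counts. The cause was not tested.

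Leaving out 1 embryo at a time gave 2 to 2 called members for B×J uniparental over parthenotes, 2 to 4 over 2PN embryos, 1 to 4 over embryos called 1PN, 1 to 4 for J×B uniparental over 2PN embryos, 2 to 3 for J×B over B×J uniparental embryos, and 0 to 1 for the difference between crosses. For embryos called 1PN over 2PN embryos it gave 0 in J×B, and 0 in B×J, where only embryo 9 was left out. The embryos left out in turn were the uniparental embryos, the J×B embryos called 1PN and B×J embryo 9 of those called 1PN. No parthenote or 2PN embryo was left out in this way. DESeq2 size factors moved the median log2 fold change of all genes in B×J uniparental over 2PN embryos to 0.41, against 0.19 with TMM factors, and in J×B uniparental over 2PN embryos to -0.27, against -0.64. Thin counts limit Nlrp2 and Khdc3, which had no count in 2 embryos each.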
